A study of Mus musculus with 12 samples.

Results

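Ion channels and aquaporins are membrane pores for ions and water, and their genes were followed here in mouse skin. The genes were taken by symbol, mainly: potassium channels, voltage-gated or not (Kcn), voltage-gated sodium and calcium channels (Scn, Cacn), TRP channels, chloride channels and their regulators (Clcn, Clca), anoctamins (Ano), aquaporins (Aqp), P2X receptors, Piezo, Lrrc8, Orai and the Itpr receptors, each with its accessory subunits. The pattern took 86 of the 7902 genes in the tables, as 111 of 10720 transcript rows. It also took 5 genes by their letters alone, Trpc4ap, Tmem160, Tmem161a, Tmem161b and Tmem164, which leaves 81 genes of channels, subunits and regulators. RefSeq holds 234 protein-coding genes that match the same pattern, so most of the superfamily was not analysed here.

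Bulk RNA sequencing of skin gave 12 libraries in 3 groups of 4, named Ctrl, Model and M+NSPCC1. Ctrl was control skin. Model was skin in which ageing had been induced by D-galactose, a sugar given in excess to stress tissue, and by ultraviolet light of the A and B bands, and M+NSPCC1 had that model and NSPCC1, a grape seed extract. The labels give no strain, genotype, age, sex, body site, dose or time, and leave unsaid whether each library is its own animal. The p-values therefore reflect only how these libraries scatter, which may be partly technical.

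Voltage-gated channels carry the electrical signals of muscle and nerve, and each muscle fibre membrane holds a set of sodium, calcium, potassium and chloride channels that start and end a contraction. In the epidermis, TRP channels and Orai let calcium into keratinocytes, where calcium steers differentiation, and aquaporin-3 passes water and glycerol. Accessory subunits (beta, gamma, alpha2delta, Kcne, Kcnip) form no pore and set how much current a channel passes.

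Levels are given as CPM, estimated counts scaled by TMM to a common total over the genes in the tables, for comparing libraries, and as FPKM, which also divides by transcript length, for comparing genes. Fold changes are log2 values with a standard error (SE), and adjusted p is Benjamini-Hochberg over the 7638 genes tested with edgeR's quasi-likelihood test. Of the 86 genes, 79 were tested. Aqp8, Cacna1c, Clcn3, Clcn4, Lrrc8b and Kcnma1 had too few counts, and Kcnk13 was listed at 0 in all 12 libraries. The summed counts ran from 9717338 to 10952623 per library, and relative depth, recovered for the complete libraries, from 0.967 to 1.03. The 86 genes took 0.431% to 0.451% of the summed count in Ctrl, 0.203% to 0.249% in Model and 0.217% to 0.304% in M+NSPCC1.

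Most of the 79 genes were lower in Model skin and a smaller group was higher. Against Ctrl, 51 of the 79 fell, 20 rose and 8 did not pass. Together 89.9% passed, where 90.5% of all genes tested passed, a share near that background. In all genes 49.1% rose and 41.4% fell, and the median log2 fold change was -1.45 over the 79 genes and 0.25 over all genes. Model and Ctrl libraries did not overlap for 67 of the 79, against 83.1% of all genes. In M+NSPCC1 against Ctrl, which shares the Ctrl libraries, 19 rose, 55 fell and 5 did not pass. All genes passed in 93.2% there (50.1% higher, 43.1% lower), with a median of 0.27, and the 79 genes had a median of -1.84. Libraries did not overlap there for 69 of the 79, against 90.0% of all genes. DESeq2 called 84.4% of all genes in Model against Ctrl, and kept 68 of the 71 edgeR calls among the 79 genes. Without the 5 genes matched by letters alone, 19 rose and 48 fell of 74 in Model, and 18 rose and 52 fell in M+NSPCC1, each against Ctrl. The tables hold mostly genes that differ from Ctrl, so these shares describe that selection. The median over all genes was 0.08 with DESeq2's size factors and 0.43 with whole-library depth, and that of the 79 genes lay -1.70, -1.69 and -1.72 from it under TMM and these scalings.

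**Figure D1:**
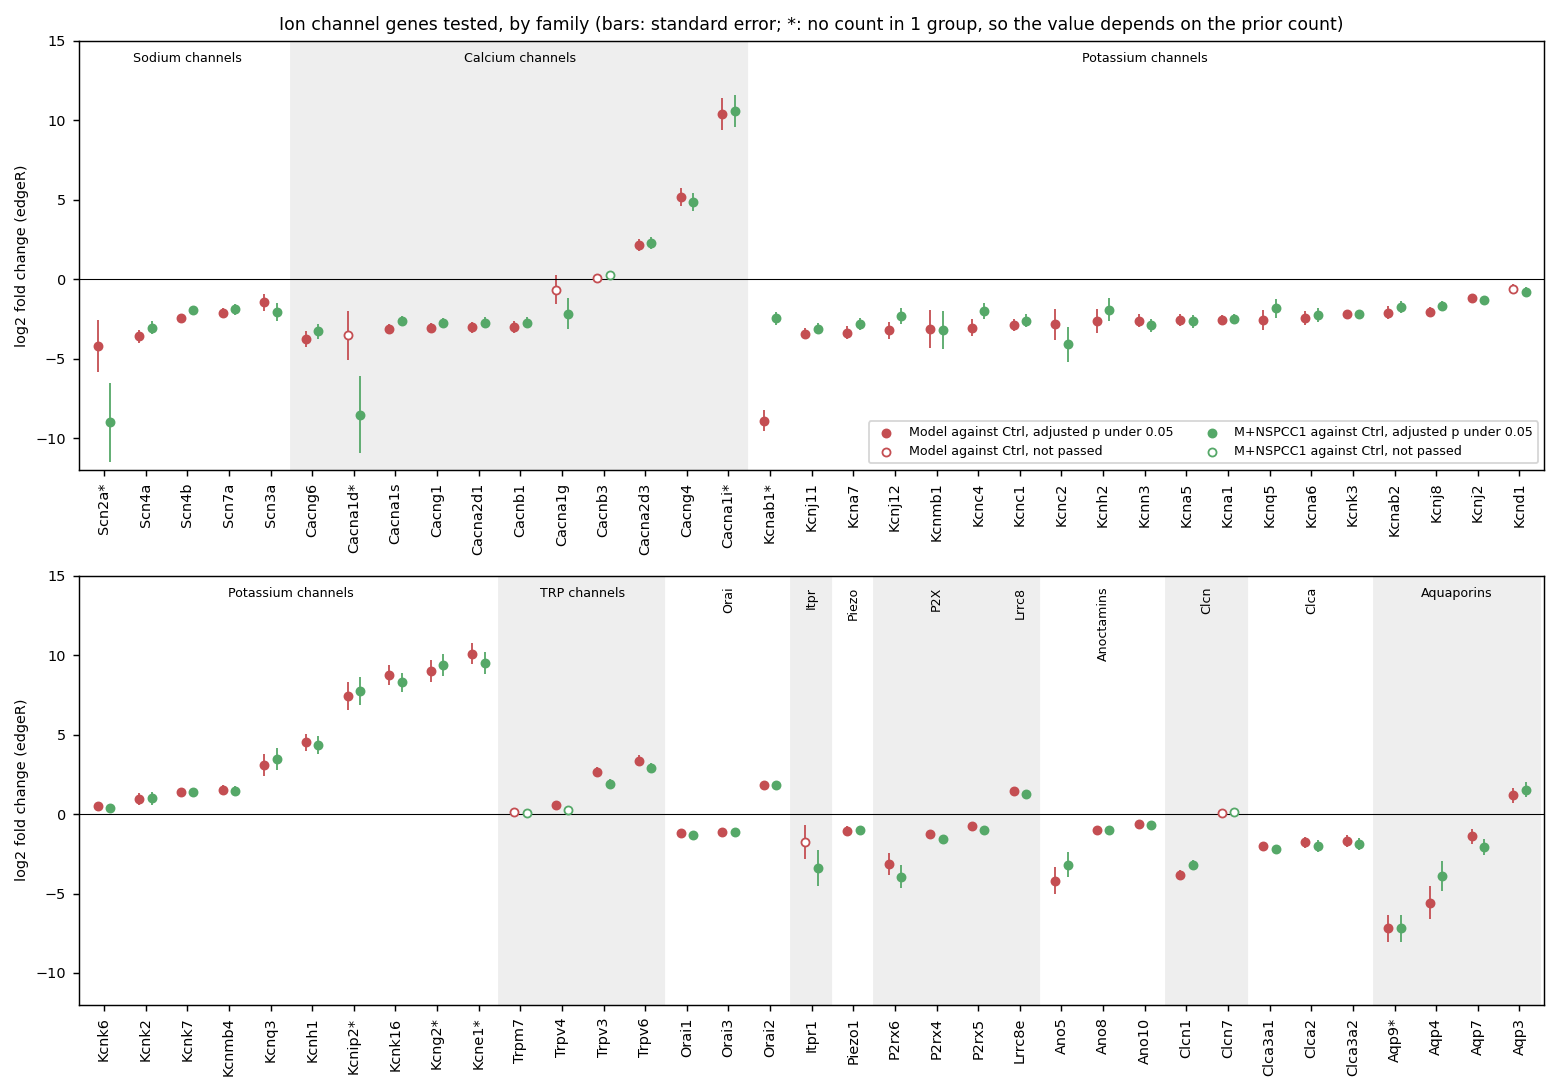
Log2 fold change (edgeR, vertical axis, bars: standard error) of 70 of the 74 channel genes tested, by family, in Model against Ctrl (red) and M+NSPCC1 against Ctrl (green); filled points passed at an adjusted p under 0.05, and an asterisk marks a gene with no count in 1 group, whose value depends on the prior count. The sodium channel genes shown, all 3 anoctamins, all 3 P2X receptors and all 3 Clca genes lie below 0, the TRP genes shown lie above 0, and potassium, calcium, Orai and aquaporin genes lie on both sides.

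Summed over a family, Ctrl skin held 212 ± 13.1 FPKM of sodium channel genes and Model skin 38.7 ± 18.3 (SD, n = 4 each). Calcium channel genes summed to 177 ± 12.4 FPKM in Ctrl and 33.7 ± 10.3 in Model. Among families of at least 3 genes, these were the pair with the lowest ratios, at -2.45 and -2.40 on the log2 scale. The Clca genes followed at -1.60, P2X receptors at -1.23, anoctamins at -0.85, Clcn genes at -0.62 and Orai at -0.54. Potassium channel genes summed to 101 ± 5.47 FPKM in Ctrl and 82.7 ± 8.32 in Model, a ratio of -0.29 (-0.86 on summed CPM), with rises and falls side by side. TRP genes went from 17.9 ± 2.05 to 37.4 ± 2.96 FPKM (ratio 1.07). Aquaporins went from 66.2 ± 25.6 to 127 ± 23.7 FPKM (ratio 0.94), with both identical rows of Aqp4 counted. On summed CPM the aquaporin ratio was 0.24, and the groups overlapped (214 to 388 CPM in Ctrl, 249.9 to 386.5 in Model). Taken as a share of the summed FPKM of the 81 genes, Aqp3 held 6.15% ± 3.195 in Ctrl skin and 28.9% ± 6.29 in Model skin (SD, n = 4 each).

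The promoters of 5 genes that carry these patterns are shown: the muscle channels Clcn1 and Cacna1s, which fell, and Kcnk16, Cacna1i and Trpv6, which rose. Each is the 250 bases before a RefSeq transcript start in GRCm38.p6, the assembly of mm10, written 5′ to 3′ on the gene's strand. Capitals mark the matches to the motifs searched on both strands: CAGCTG, the E-box that myogenic factors bind, CTTTGA, the core that Lef1 and Tcf factors bind, TATAAA, the TATA box, and the MEF2 consensus.
Clcn1 (chr6:42286435-42286684, plus strand): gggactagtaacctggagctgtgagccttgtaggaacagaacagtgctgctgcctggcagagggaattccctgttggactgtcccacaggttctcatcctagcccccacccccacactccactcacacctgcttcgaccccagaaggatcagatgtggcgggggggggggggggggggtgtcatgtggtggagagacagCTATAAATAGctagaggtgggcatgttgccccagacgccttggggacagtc
Cacna1s (chr1:136052561-136052810, plus strand): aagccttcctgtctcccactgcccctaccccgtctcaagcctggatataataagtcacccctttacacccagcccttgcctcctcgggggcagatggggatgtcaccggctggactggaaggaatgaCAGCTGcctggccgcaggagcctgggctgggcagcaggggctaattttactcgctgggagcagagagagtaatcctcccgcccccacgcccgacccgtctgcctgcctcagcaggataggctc
Kcnk16 (chr14:20269270-20269519, minus strand): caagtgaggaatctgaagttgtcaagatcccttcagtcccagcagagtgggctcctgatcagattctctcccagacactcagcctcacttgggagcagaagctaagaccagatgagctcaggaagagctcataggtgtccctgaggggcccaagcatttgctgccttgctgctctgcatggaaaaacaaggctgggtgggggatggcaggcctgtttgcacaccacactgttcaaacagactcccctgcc
Cacna1i (chr15:80286988-80287237, plus strand): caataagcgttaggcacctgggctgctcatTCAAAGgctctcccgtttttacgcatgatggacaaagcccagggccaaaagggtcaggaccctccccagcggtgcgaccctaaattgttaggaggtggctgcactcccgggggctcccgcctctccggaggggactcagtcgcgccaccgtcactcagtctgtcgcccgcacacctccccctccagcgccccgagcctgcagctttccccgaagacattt
Trpv6 (chr6:41636406-41636655, minus strand): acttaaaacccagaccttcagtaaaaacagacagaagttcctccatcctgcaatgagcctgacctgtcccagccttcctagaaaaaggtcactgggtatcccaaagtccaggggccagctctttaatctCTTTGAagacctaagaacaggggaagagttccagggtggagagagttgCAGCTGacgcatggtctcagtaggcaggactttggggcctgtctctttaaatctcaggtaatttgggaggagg
The Clcn1 window, which lies within the gene's RefSeq span, holds a MEF2 consensus match from 51 to 42 bases before the start, and the TATAAA match lies inside it. In Cacna1s the CAGCTG match ends 118 bases before the start. Trpv6 has CAGCTG ending at 68 and CTTTGA ending at 116 bases before the start, and Cacna1i has the reverse complement of CTTTGA. Kcnk16 holds none of them. RefSeq promoters were found for 64 of the 86 genes (87 promoters). CAGCTG occurred in 19.5% of these and in 4271 of all 32851 promoters, TATAAA in 6.90% and 12.4%, CTTTGA in 11.5% and 13.8%, and the MEF2 consensus in 2.30% and 2.92%. The CArG box, which serum response factor binds, occurred in 0 of the 87 and in 1.47% of all. In the 11 promoters of the muscle channel genes, CAGCTG occurred in 18.2% and the MEF2 consensus in 9.09%. A match is a run of letters and no evidence of binding.

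Sodium channel genes fell without exception. All 6 passed lower in Model and in M+NSPCC1, each against Ctrl (medians -2.53 and -2.17). Of all genes tested, 41.4% passed lower and 49.1% higher in Model, and 43.1% and 50.1% in M+NSPCC1. These shares are the background for each family count that follows. Scn4a (chr11:106317545-106365559), the pore of the skeletal muscle sodium channel, had 263, 282, 243 and 264 CPM in the Ctrl libraries, 28.03, 6.76, 37.6 and 13.9 in Model and 44, 31.3, 23.9 and 27.4 in M+NSPCC1. The highest value outside Ctrl was thus far below the lowest Ctrl value. Its log2 fold change was -3.61 (SE 0.42) in Model (edgeR adjusted p = 1.14e-05) and -3.05 (SE 0.41) in M+NSPCC1. Scn4b (chr9:45138624-45154155), the beta4 subunit, had 234, 259, 267 and 199.7 CPM in Ctrl, 55.4, 32.2, 55.9 and 31.97 in Model and 70.3, 61.8, 58.6 and 64.4 in M+NSPCC1. All 4 M+NSPCC1 libraries lay above all 4 Model libraries here, and both groups lay far below Ctrl. Scn4b changed by -2.45 (SE 0.20) in Model against Ctrl (edgeR adjusted p = 6.59e-07).

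The other sodium channels belong to nerve. Scn7a (chr2:66673426-66784910), a sodium-sensing channel of Schwann cells and other glia, had 127, 142, 151 and 133 CPM in Ctrl and 37.1, 15.5, 53.1 and 20.6 in Model, and fell by 2.13 on the log2 scale (SE 0.32). The neuronal pores Scn3a and Scn2a lie side by side on chromosome 2, with no protein-coding gene in the 53.2 kb between them. Scn3a fell by 1.45 and Scn2a by 4.21, with edgeR adjusted p = 0.0229 and 0.0366. For both genes Ctrl and Model overlapped: Scn2a had 10.1, 12.4, 2.79 and 0 CPM in Ctrl and 0, 1.297, 0 and 0 in Model. Scn2a did not pass without Ctrl 01, Ctrl 02, Model 01, Model 03 or Model 04, nor with DESeq2, and Scn3a did not pass without Ctrl 04, Model 02 or Model 04 (adjusted p up to 0.0871 and 0.0667).

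Calcium channel genes split into the muscle complex, which fell, and 3 genes that rose. Of 11 tested, 5 fell, 3 rose and 3 did not pass in Model. Cacna1s (chr1:136052806-136119822), the pore and voltage sensor that couples excitation to contraction in skeletal muscle, had 364, 438, 409 and 382 CPM in Ctrl, 56.7, 25.9, 70.2 and 26.6 in Model and 80.03, 67.9, 51.7 and 53.4 in M+NSPCC1. The groups did not overlap with Ctrl, and the log2 fold change in Model was -3.15 (SE 0.31) (edgeR adjusted p = 3.15e-06). Its partners in the same complex fell to a like extent: Cacnb1 (beta1) by 3.01, Cacng1 (gamma1) by 3.05 and Cacna2d1 (alpha2delta1) by 3.02 on the log2 scale. Cacng1 (chr11:107703218-107716476) had the highest FPKM of the family, 49.1, 55.4, 48.7 and 59.3 in Ctrl against 8.22, 3.99, 11.9 and 4.62 in Model. Cacng6 (chr7:3423588-3435667), a gamma subunit also found in muscle, had 85.5, 98.3, 88.9 and 88.4 CPM in Ctrl, 9.47, 1.85, 12.4 and 2.61 in Model and 11.6, 10.1, 6.29 and 9.14 in M+NSPCC1, without overlap with Ctrl. It changed by -3.78 (SE 0.49) in Model and -3.28 (SE 0.47) in M+NSPCC1.

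The 3 risen calcium channel genes were Cacna1i, Cacng4 and Cacna2d3. Cacna1i (chr15:80287238-80398292) forms a T-type channel, which opens at voltages near rest. It had no count in any Ctrl library, 17.9, 27.6, 5.36 and 14.1 CPM in Model and 10.9, 18.4, 25.8 and 20.6 in M+NSPCC1. It was at least 198-fold higher in Model and 231-fold in M+NSPCC1, bounds set by 3 counts over the Ctrl group. Cacng4 (chr11:107732357-107794706), a gamma-like subunit that mainly serves glutamate receptors, had 0.221, 0.663, 0.322 and 0.108 CPM in Ctrl, 12.6, 19.4, 4.17 and 13.1 in Model and 7.52, 10.1, 8.65 and 12.2 in M+NSPCC1. The groups stood apart from Ctrl, with a log2 fold change of 5.18 (SE 0.56) in Model. Cacng1 and Cacng4 are neighbours on chromosome 11, 15.9 kb apart with no protein-coding gene between, and moved in opposite directions. Cacna2d3 (chr14:28904943-29722775), an alpha2delta subunit, had 1.44, 3.75, 1.395 and 2.81 CPM in Ctrl, 14.01, 11.6, 6.85 and 9.23 in Model and 5.96, 12.5, 14.1 and 12.6 in M+NSPCC1. It did not overlap with Ctrl and rose by 2.14 on the log2 scale (SE 0.40). Of the genes that did not pass in Model, Cacnb3 (beta3) had 25.3 ± 1.098 CPM in Ctrl and 26.6 ± 2.697 in Model, and the pores Cacna1d and Cacna1g were at low levels, with at most 6.23 and 3.76 CPM in any library. Cacna1d (adjusted p = 0.05602) passed lower without Ctrl 01 (0.0264) or Model 04 (0.0161) and with only the 8 libraries compared (0.0498). It also passed lower with a block for the replicate number (0.04395). In M+NSPCC1 both pores passed lower, but Cacna1g (adjusted p = 0.0474) did not with whole-library depth, with no filter on low counts, or without any 1 of 11 libraries (0.0537 to 0.0996).

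**Figure D2:**
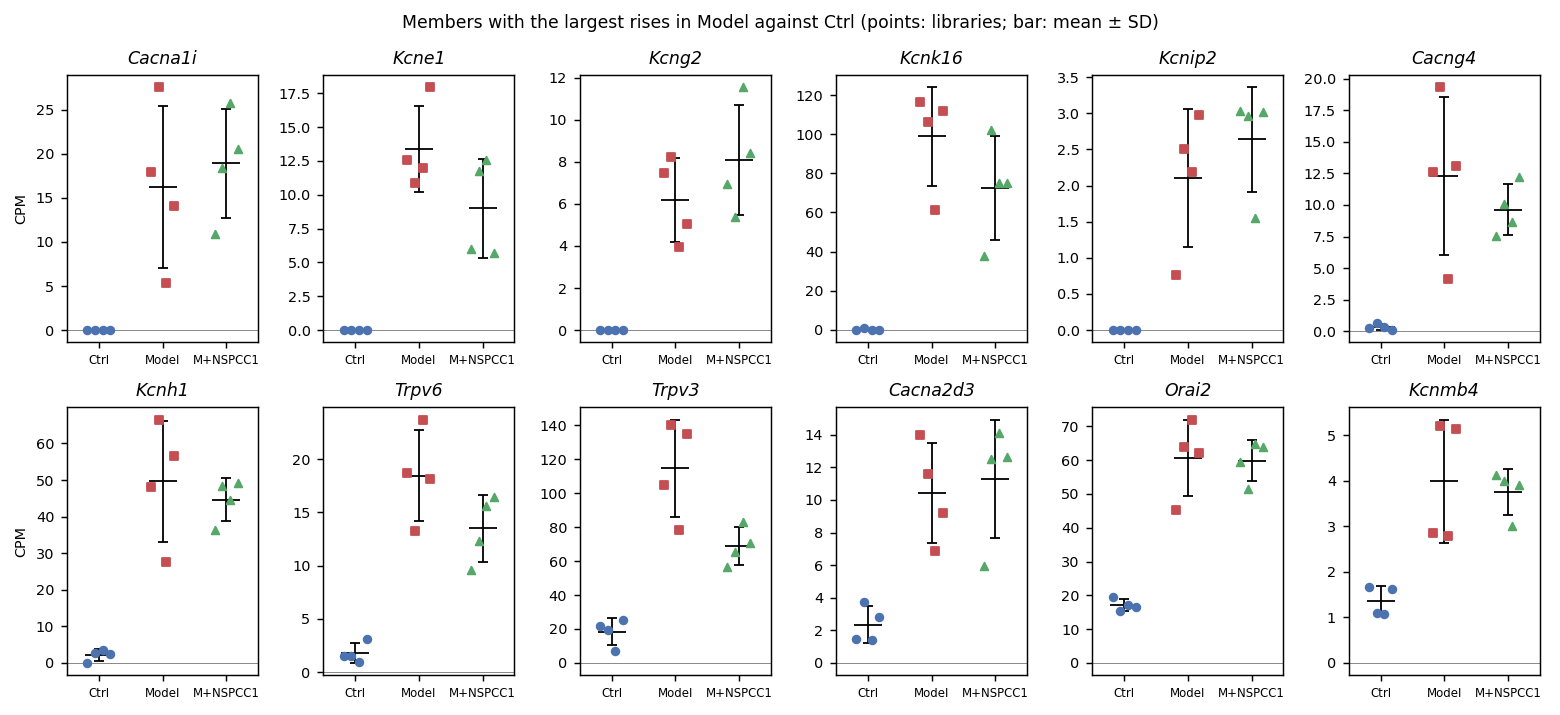
CPM by library (vertical axis, points) in Ctrl, Model and M+NSPCC1 for the 12 channel genes with the largest rises in Model against Ctrl; the black bar is the mean with its SD over 4 libraries. Cacna1i, Kcne1, Kcng2 and Kcnip2 are at 0 in all 4 Ctrl libraries, and in each of the 12 panels Model and M+NSPCC1 points overlap and lie above all Ctrl points.

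Potassium channel genes, the largest family, gave 19 falls and 10 rises among 30 tested in Model, and 20 falls and 10 rises in M+NSPCC1. In all genes 90.5% passed in Model and 93.2% in M+NSPCC1, so passing is common in these tables. The falls took in the rectifiers of muscle and vessel. Kcnj11 (chr7:46097123-46100952), the pore of the ATP-sensitive potassium channel in skeletal muscle, had 84.8, 73.6, 62.9 and 66.3 CPM in Ctrl, 8.81, 3.15, 9.82 and 4.94 in Model and 11.5, 6.86, 5.101 and 9.32 in M+NSPCC1. It fell in Model by 3.43 on the log2 scale (SE 0.35; edgeR adjusted p = 3.83e-06), with no overlap. Kcnj8, the related pore of vessel muscle, fell by 2.07. The inward rectifier Kcnj12 (chr11:61022564-61073269), which holds fibres at rest, had 27.4, 29.1, 21.8 and 18.5 CPM in Ctrl, 2.94, 1.48, 3.08 and 2.89 in Model and 10.4, 4.36, 1.37 and 2.75 in M+NSPCC1. Kcnj12 fell by 3.21 in Model and by 2.35 in M+NSPCC1, and its partner Kcnj2 by 1.22 and 1.33. Ctrl and the other groups were apart for both.

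Among voltage-gated potassium channels, the Kv1 and Kv3 genes tested fell. Kcna7 (chr7:45405960-45411382), a Kv1 channel of muscle, had 126, 134, 121 and 129 CPM in Ctrl, 15.2, 4.82, 21.4 and 8.201 in Model and 25.4, 17.1, 11.8 and 18.3 in M+NSPCC1, and a log2 fold change of -3.36 (SE 0.39) in Model. Kcna5, Kcna1 and Kcna6 lie in a row on chromosome 6, between 126532551 and 126740834, with no other protein-coding gene between them. Kcna1 and Kcna6 shape the signals of myelinated axons and Kcna5 those of vessel muscle. The 3 fell by 2.59, 2.58 and 2.44 in Model, nearly the same amount. The Kv3 genes Kcnc1, Kcnc2 and Kcnc4 fell by 2.89, 2.85 and 3.06. Kcnc2 (chr10:112269898-112466304) was low throughout, with 3.87, 3.75, 2.04 and 2.16 CPM in Ctrl, 0.758, 0.371, 0 and 0.466 in Model and 0, 0.649, 0 and 0 in M+NSPCC1. In M+NSPCC1 only library 02 held counts, and it limits the size of the fall. The log2 fold change was -4.103, and -7.915 without M+NSPCC1 02 (edgeR adjusted p = 0.000601), where the group is at 0. Kcnh2 (the ERG channel), Kcnq5 (an M-current channel), Kcnk3 (an acid-sensitive leak channel) and Kcnn3 also fell in both groups, though Kcnh2 in M+NSPCC1 did not pass without Ctrl 02, Ctrl 03, M+NSPCC1 01, M+NSPCC1 03 or M+NSPCC1 04 (adjusted p 0.0511 to 0.0659). Kcnn3 (chr3:89520164-89672494), a calcium-activated channel, had 7.41, 10.1, 9.23 and 10.6 CPM in Ctrl, 0.947, 0.834, 2.78 and 1.49 in Model and 1.65, 0.927, 0.8198 and 1.51 in M+NSPCC1, and changed by -2.62 (SE 0.41) and -2.91 (SE 0.41).

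Accessory potassium channel subunits went both ways. Kcnab1 (chr3:64949212-65378225), a beta subunit of Kv1 channels, had 5.42, 6.52, 4.401 and 7.12 CPM in Ctrl, 0 in all 4 Model libraries, with 1.65, 1.02, 0.638 and 0.888 in M+NSPCC1. It was at least 82.4-fold lower in Model than in Ctrl (bound from 3 counts over the Model group), and 2.47 lower on the log2 scale in M+NSPCC1 (SE 0.39). Kcnab2, its paralog, fell by 2.12 in Model. Kcnmb1 (chr11:33962955-33973641), the BK channel subunit of smooth muscle, had 3.76, 4.86, 4.401 and 7.23 CPM in Ctrl, 0, 0.556, 1.69 and 0 in Model and 0, 1.02, 0 and 1.15 in M+NSPCC1. It passed lower (adjusted p = 0.0266 and 0.0246), but the call in Model was lost without Ctrl 04, Model 01, Model 02 or Model 04 (adjusted p 0.0530 to 0.0614), and without Model 03 the log2 fold change was -4.67. In M+NSPCC1 it was lost without Ctrl 04, M+NSPCC1 01 or M+NSPCC1 03 (0.0563 to 0.0576), and without M+NSPCC1 04 the change was -3.85. Kcnmb4 (chr10:116417861-116473859), the BK subunit of neurons, went the other way, from 1.66, 1.105, 1.07 and 1.62 CPM in Ctrl to 2.84, 5.19, 2.78 and 5.13 in Model and 4.12, 3.99, 3.01 and 3.91 in M+NSPCC1 (log2 fold change 1.54 (SE 0.32) in Model). Its Model and M+NSPCC1 libraries overlapped each other and all lay above Ctrl. The BK pore itself, Kcnma1, was too low to test.

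The largest rises of the family were in genes nearly silent in control skin. Kcnk16 (chr14:20261375-20269269), a two-pore-domain leak channel known from the pancreas, had 0, 0.773, 0.107 and 0 CPM in Ctrl, 116, 106, 61.5 and 112 in Model and 37.7, 102, 75.2 and 74.9 in M+NSPCC1. At 28.6 ± 7.86 FPKM in Model skin it became the potassium channel gene with the highest level, and its log2 fold change was 8.75 (SE 0.61) (edgeR adjusted p = 2.73e-07). That value depends on Ctrl 02, and was 11 without it. Kcne1 (chr16:92346001-92359468), a single-pass subunit that slows channels of the heart, had no count in Ctrl, 12.6, 10.8, 12.01 and 17.99 CPM in Model and 5.96, 11.8, 12.6 and 5.68 in M+NSPCC1, at least 163-fold and 110.0-fold higher. Kcng2, a subunit that forms no channel alone, also had no count in Ctrl, 7.48, 8.25, 3.97 and 5.03 CPM in Model and 6.97, 5.38, 11.6 and 8.43 in M+NSPCC1 (at least 75.6-fold and 98.9-fold higher). Neither gene overlapped with Ctrl. Kcnip2 (chr19:45792346-45816422), a calcium-binding partner of Kv4 channels, reached only 0.758, 2.502, 2.18 and 2.98 CPM in Model and 3.02, 2.97, 1.55 and 3.02 in M+NSPCC1 from 0 in Ctrl, at least 25.8-fold and 32.3-fold higher.

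Kcnh1 (chr1:192189144-192510159), the ether-a-go-go channel, had 0, 2.65, 3.65 and 2.38 CPM in Ctrl, 48.01, 66.5, 27.6 and 56.6 in Model and 36.3, 48.5, 44.5 and 49.1 in M+NSPCC1. No library outside Ctrl came near the Ctrl range, and the log2 fold change was 4.51 (SE 0.55) in Model and 4.35 (SE 0.55) in M+NSPCC1. The M-current gene Kcnq3 rose by 3.08 in Model from near 0, to at most 1.33 CPM, and its relative Kcnq5 fell. Leak channels of the K2P family rose apart from Kcnk3: Kcnk7 by 1.42, Kcnk2 by 0.95 and Kcnk6 by 0.52. Kcnk2 overlapped with Ctrl and did not pass with DESeq2 or its size factors, nor without any of the Ctrl libraries, Model 01, Model 03 or M+NSPCC1 02 (adjusted p 0.0514 to 0.116). Kcnk6 (chr7:29221928-29232522) was second to Kcnk16 in FPKM over all libraries and had 7.95, 6.32, 7.63 and 7.84 in Ctrl, 11.7, 13.2, 10.7 and 12.7 in Model and 10.9, 11.3, 12.8 and 10.8 in M+NSPCC1, a small rise without overlap. Kcnd1 had 7.34 ± 1.73 CPM in Ctrl and 4.83 ± 1.75 in Model and did not pass there (adjusted p = 0.0668; 0.0132 with DESeq2, 0.0301 with its size factors, 0.0466 without Ctrl 04 and 0.0133 without Model 03). In M+NSPCC1 it passed lower (adjusted p = 0.0204), but not with whole-library depth (0.0634) or without Ctrl 01, M+NSPCC1 03 or M+NSPCC1 04 (0.0505 to 0.0650).

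**Figure D3:**
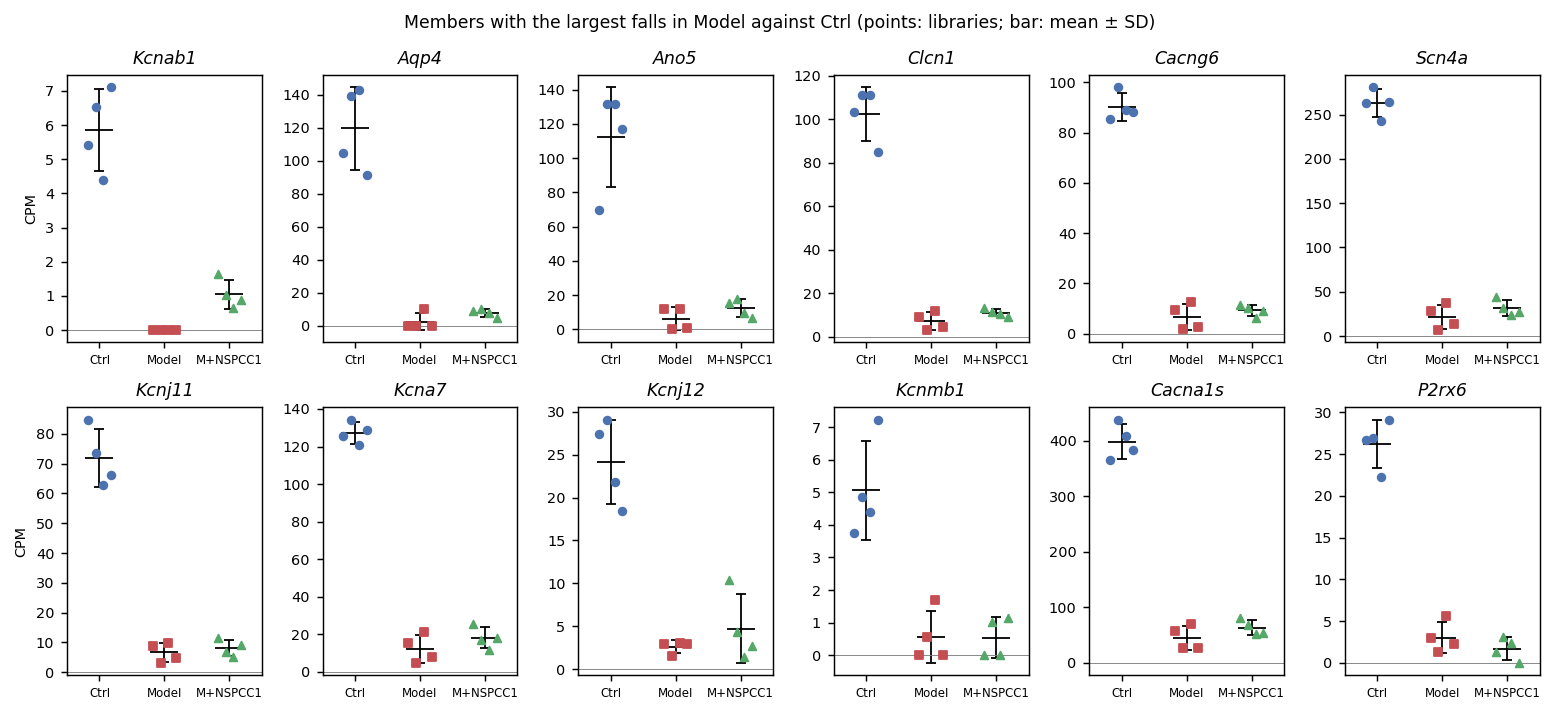
CPM by library (vertical axis, points) in Ctrl, Model and M+NSPCC1 for the 12 channel genes with the largest falls in Model against Ctrl; the black bar is the mean with its SD over 4 libraries. In every panel the lowest Ctrl library is above the highest Model library, and Kcnab1 is the panel where all Model points are at 0 and all M+NSPCC1 points are above it.

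TRP channel genes had the highest ratio among families of at least 3 genes. Of 5 tested, 3 rose, 1 fell and Trpm7 did not pass in Model. Trpv3 (chr11:73267489-73300368), the warmth-sensitive calcium channel of keratinocytes, had 21.8, 19.4, 6.98 and 25.1 CPM in Ctrl, 105, 140.2, 78.2 and 135 in Model and 56.6, 65.4, 82.9 and 70.9 in M+NSPCC1. Model values were highest and M+NSPCC1 values lay between, with overlap only between Model and M+NSPCC1. Its log2 fold change was 2.64 (SE 0.33) in Model (edgeR adjusted p = 1.79e-05) and 1.91 (SE 0.32) in M+NSPCC1. Trpv6 (chr6:41620619-41636405), a channel highly selective for calcium, had 1.55, 1.55, 0.966 and 3.13 CPM in Ctrl, 18.6, 13.2, 23.7 and 18.2 in Model and 9.62, 12.3, 15.6 and 16.4 in M+NSPCC1. It rose by 3.35 and 2.90 on the log2 scale, with no overlap with Ctrl. Trpv4 (chr5:114622152-114658435), which responds to osmotic swelling, rose in Model by 0.57 (adjusted p = 0.00355), from 5.84, 5.60, 4.56 and 5.64 FPKM in Ctrl to 7.38, 7.89, 9.97 and 10.9 in Model. In M+NSPCC1 it did not pass by edgeR (0.29 (SE 0.15); adjusted p = 0.0835), though it did with whole-library depth as scaling (adjusted p = 0.00703), with only the 8 libraries compared (0.0248) and without M+NSPCC1 04 (0.0424). Trpm7 (chr2:126791558-126876261), a channel fused to a kinase, had the highest FPKM of the family in Ctrl, 10.02, 8.77, 8.63 and 9.59 in Ctrl and 12.2, 11.1, 10.97 and 11 in Model, with a log2 fold change of 0.11 (SE 0.07) on counts (adjusted p = 0.119). With whole-library depth as scaling it passed higher at 0.29 (adjusted p = 0.00213).

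Orai channels admit calcium when stores in the endoplasmic reticulum run low, and their makeup shifted. Orai1 (chr5:123015074-123030452) had 31.02, 23.2, 27.03 and 28.1 FPKM in Ctrl, 12.9, 10.4, 19.4 and 11.9 in Model and 15.3, 10.8, 10.5 and 12.2 in M+NSPCC1. Orai3 (chr7:127769815-127775150) had 21.4, 20.1, 19.8 and 18.5 in Ctrl, 10.1, 8.84, 13.6 and 9.28 in Model and 10.01, 11.7, 11.3 and 10.2 in M+NSPCC1. Orai2 (chr5:136147456-136170697) had 2.89, 2.26, 2.48 and 2.46 in Ctrl, 7.66, 10.6, 11.5 and 10.6 in Model and 10.02, 8.72, 11.2 and 11.1 in M+NSPCC1. Thus Orai1 and Orai3 were lower and Orai2 higher in all 8 libraries outside Ctrl, without overlap. On counts, Orai1 fell by 1.21 and Orai3 by 1.10 in Model, and Orai2 rose by 1.83 (SE 0.15; edgeR adjusted p = 6.62e-07). Orai2 made up 5.06% ± 0.118 of the summed Orai FPKM in Ctrl, 29.9% ± 5.24 in Model and 30.8% ± 3.06 in M+NSPCC1 (SD, n = 4 each).

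Piezo1 (chr8:122481698-122551329), a channel opened by membrane stretch, had 20.7, 24.9, 42.2 and 24.9 CPM in Ctrl, 9.28, 11.8, 15.9 and 17.5 in Model and 17.3, 11.9, 16.3 and 11.3 in M+NSPCC1, and fell by 1.05 in Model with no overlap. Itpr1 (chr6:108213083-108551116), a calcium release channel of the endoplasmic reticulum, had 38.3, 29.7, 49.1 and 31.5 CPM in Ctrl, 14.2, 5.097, 24.1 and 0 in Model and 0, 3.62, 1.09 and 9.32 in M+NSPCC1. It did not pass in Model (-1.78 (SE 1.06); adjusted p = 0.128), where the libraries spread widely below Ctrl, and passed lower in M+NSPCC1 (-3.40 (SE 1.15); adjusted p = 0.0146; -4.55 without M+NSPCC1 04). Lrrc8e (chr8:4224268-4237470), a subunit of the volume-regulated anion channel, had 7.08, 8.73, 7.94 and 13.2 CPM in Ctrl, 23.4, 34.5, 19.6 and 22.6 in Model and 17.7, 20.3, 20.7 and 28.6 in M+NSPCC1. It rose by 1.44 and 1.24.

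**Figure D4:**
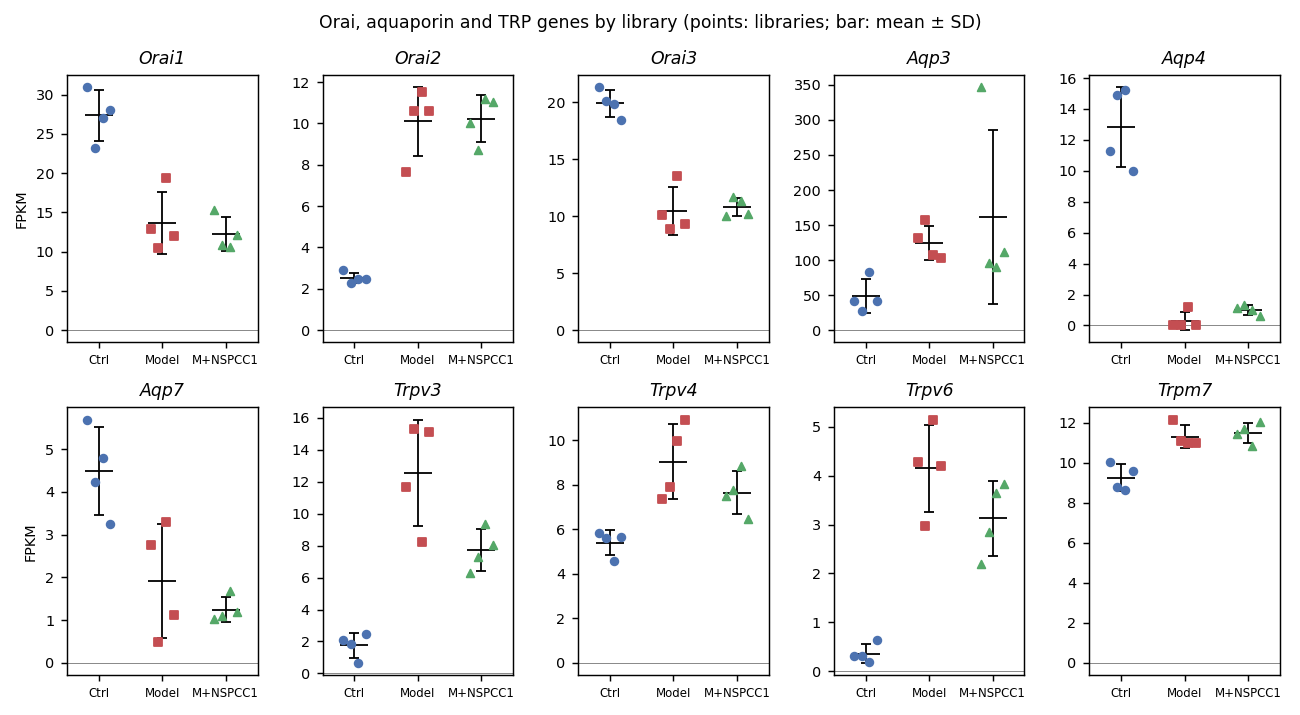
FPKM by library (vertical axis, points) in Ctrl, Model and M+NSPCC1 for the Orai genes, 3 aquaporins and 4 TRP genes; the black bar is the mean with its SD over 4 libraries. Orai2 rises where Orai1 and Orai3 fall, Aqp3 is highest in M+NSPCC1 01 at 348 FPKM, and Trpm7 runs from 8.63 to 12.2 FPKM over the 12 libraries.

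The chloride channel genes tested fell, apart from Clcn7. Clcn1 (chr6:42284851-42315764), the chloride channel that quiets the muscle fibre after an action potential, had 103, 111, 111 and 84.9 CPM in Ctrl, 9.28, 3.15, 11.8 and 4.66 in Model and 13.4, 11.7, 10.5 and 9.23 in M+NSPCC1. Its log2 fold change of -3.83 (SE 0.34) in Model had an edgeR adjusted p of 1.43e-06, with no overlap. Clcn7 (chr17:25133378-25162103), a chloride-proton exchanger of lysosomes that most cells carry, had 98.7, 113, 105 and 117 CPM in Ctrl, 105, 117, 103 and 134 in Model and 119, 116, 118 and 118 in M+NSPCC1. The groups overlapped (log2 fold change 0.08 (SE 0.09), adjusted p = 0.401; 0.26 and adjusted p = 0.0249 with whole-library depth as scaling). The Clca genes, whose secreted products regulate calcium-activated chloride currents, lie in a cluster on chromosome 3. Clca3a2 (chr3:144780581-144819623) had 350.4, 325, 156 and 257 CPM in Ctrl, 74.5, 38.4, 165 and 56.7 in Model and 87.4, 64.2, 65.3 and 78.8 in M+NSPCC1. Model 03 lay above Ctrl 03, so the groups overlapped, and Clca3a2 fell by 1.70 (SE 0.40). Clca3a1, 19.6 kb away, fell by 1.99 and Clca2 by 1.78. These paralogs are alike in sequence, so the split of reads between them is uncertain.

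All 3 anoctamins fell. Ano5 (chr7:51510007-51598707), known from inherited muscle disease, had 69.7, 131, 131 and 117 CPM in Ctrl, 12.03, 0, 11.7 and 0.932 in Model and 15.4, 17.8, 9.65 and 6.75 in M+NSPCC1, a log2 fold change of -4.19 (SE 0.84) in Model. Ano10 (chr9:122175874-122294444) and Ano8 (chr8:71476016-71486092), which many tissues express, fell by less, 0.66 and 1.03, and had 23.7 ± 1.59 and 9.80 ± 0.575 FPKM in Ctrl. The P2X receptors, which open to extracellular ATP, also fell throughout. P2rx6 (chr16:17561867-17572015), a subunit found in muscle, had 26.6, 26.9, 22.2 and 29.1 CPM in Ctrl, 3.03, 1.297, 5.56 and 2.24 in Model and 1.28, 3.15, 2.37 and 0 in M+NSPCC1. P2rx4 (chr5:122707518-122729739), widespread and strong in macrophages, had 119.7, 88.4, 90.4 and 91.5 CPM in Ctrl, 38.5, 29.1, 60.6 and 34.02 in Model and 36.9, 38.01, 31.7 and 24.6 in M+NSPCC1. Their log2 fold changes in Model were -3.11 (SE 0.69) and -1.26 (SE 0.22), without overlap, and P2rx5 (chr11:73155389-73172687) fell by 0.72. P2rx5 and Trpv3 lie on the same stretch of chromosome 11, 94.8 kb apart with 5 protein-coding genes between, and moved in opposite directions.

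Aquaporins went in opposite directions. Aqp3 (chr4:41092724-41098183), the glycerol and water channel of basal keratinocytes, had 113, 74.3, 235 and 115 CPM in Ctrl, 315, 386, 275 and 248 in Model and 848, 230.2, 212 and 266 in M+NSPCC1. M+NSPCC1 01 held more than 3 times the other libraries of its group. In Model Aqp3 rose by 1.19 (SE 0.47; adjusted p = 0.02995), but under the size factors of DESeq2 its adjusted p was 0.0593, nor did it pass without Ctrl 01, Ctrl 02, Ctrl 04, Model 01 or Model 02 (0.0516 to 0.0784). In M+NSPCC1, whose libraries overlapped with Ctrl, it rose by 1.53 (adjusted p = 0.00874), and by 0.81 without M+NSPCC1 01 (adjusted p = 0.0313), where the other 3 libraries had 236 ± 27.3 CPM (SD, n = 3). Its neighbour Aqp7 (chr4:41033074-41048237), 44.5 kb away with no protein-coding gene between and the glycerol channel of fat cells, fell by 1.40, from 9.29, 6.96, 8.05 and 5.18 CPM in Ctrl to 3.88, 0.741, 4.96 and 1.58 in Model. Aqp4, the water channel of fast muscle fibres, had 105, 139, 143 and 91.6 CPM in Ctrl, 0, 0, 10.2 and 0 in Model and 8.89, 10.5, 7.83 and 4.53 in M+NSPCC1. Only Model 03 held Aqp4 counts in Model, so the fold change of -5.57 (SE 1.05) rests on that library, and without it the Model group is at 0. Aqp9, a glycerol channel of leukocytes among other cells, had 1.77 ± 0.591 CPM in Ctrl and no count elsewhere, at least 24.9-fold lower in Model. Aqp3 made up 70.7% ± 9.62 of the summed aquaporin FPKM in Ctrl and 98.1% ± 1.59 in Model (SD, n = 4 each). Both rows of Aqp4, identical in counts, entered that sum. This lowers the share of Aqp3 most in Ctrl, where Aqp4 was high, and so widens the difference.

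The channels of skeletal muscle fell together. All 14 genes of a list of skeletal muscle channels (among them Scn4a, Cacna1s, Clcn1, Kcnj11, Aqp4 and Ano5) passed lower in Model and in M+NSPCC1 against Ctrl. The median log2 fold changes were -3.29 and -2.79, and neither group overlapped with Ctrl for any of them. In all genes 41.4% passed lower in Model and 43.1% in M+NSPCC1, and libraries did not overlap with Ctrl for 83.1% and 90.0%. Lack of overlap is thus common in these tables. The same shares are the background for the lists that follow. Skeletal muscle markers moved with them: all 13 of 13, including Acta1, Myh4, Ckm and Ttn, fell, with a median of -3.22. Their summed level was 72610 to 77580 CPM in Ctrl, 4195 to 13610 in Model and 9463 to 14370 in M+NSPCC1. Set against it, the summed CPM of the 14 channel genes was 2.77% to 3.02% of the marker CPM in Ctrl, 2.93% to 3.68% in Model and 2.67% to 2.91% in M+NSPCC1. In bulk tissue, fewer cells of a type and less RNA per cell cannot be told apart.

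**Figure D5:**
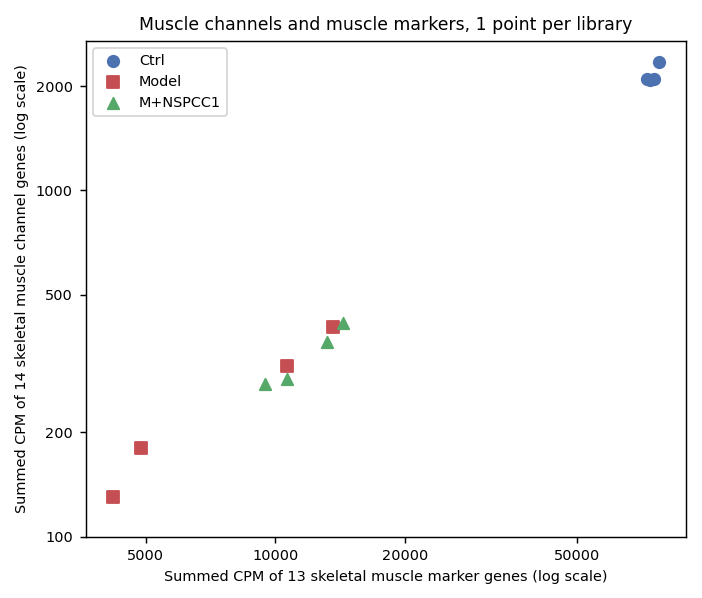
Summed CPM of 13 skeletal muscle marker genes (horizontal axis, log scale) and of 14 skeletal muscle channel genes (vertical axis, log scale), 1 point per library, coloured by group. Ctrl libraries lie together at 2080 to 2344 CPM of channel genes, and Model (130 to 402) and M+NSPCC1 libraries (276 to 415) lie lower along the same line.

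Channels of other cell types followed lists of their own. Of 8 nerve and Schwann cell channels tested from a list of 19, 6 fell (among them Scn7a, Scn2a, Scn3a, Kcna1 and Kcna6) and Kcnq3 and Kcnk2 rose. All 7 Schwann cell and nerve markers tested of 8 fell, at 1433 to 1845 summed CPM in Ctrl, 169 to 377 in Model and 278 to 393 in M+NSPCC1. The nerve channels were 12.7% to 14.8% of that marker sum in Ctrl, 14.6% to 22.9% in Model and 16.5% to 22.8% in M+NSPCC1. Of 5 smooth muscle and vessel channels tested, 4 fell in Model and 5 in M+NSPCC1. Smooth muscle and pericyte markers (5 of 5 tested lower) summed to 3681 to 4197 CPM in Ctrl and 427 to 937 in Model. Des, which stands in the skeletal muscle list too, takes most of that sum (2988 CPM in Ctrl, 350.2 in Model), and Acta2 fell by 0.57 on the log2 scale. Endothelial markers (7 of 7 lower) summed to 828 to 1019 CPM in Ctrl and 158 to 457 in Model. The part of these markers in the channel results was not tested. None of the 10 touch, pain and temperature channels listed, such as Trpv1, Trpa1, Trpm8 and Piezo2, was in the tables analysed here.

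Epidermal channels had no common direction. Of 9 tested, Trpv3, Trpv4, Trpv6 and Aqp3 rose in Model, Piezo1, Orai1, Clca2 and Clca3a2 fell and Trpm7 did not pass. Of 3 epidermal keratinocyte markers tested, 2 rose and 1 fell, and their sums overlapped (6659 to 8916 CPM in Ctrl, 4550 to 8559 in Model). Hair markers (hair shaft keratins and genes of the inner sheath) rose in 15 of 15, from 7.84 to 343 summed CPM in Ctrl to 47240 to 74090 in Model and 32510 to 58300 in M+NSPCC1. Ctrl 02 held the highest sum of its group, as it did for Kcnk16 and Cacng4, while Kcnh1 was highest in Ctrl 03 and Cacna1i, Kcne1 and Kcng2 had no count in any Ctrl library. Melanocyte markers rose in 7 of 7, from 14.5 to 48.2 CPM to 914 to 2683 in Model, and markers of cycling cells in 5 of 5. Their part in the rises of Kcnk16, Cacna1i, Kcne1, Kcng2, Kcnh1 and Cacng4 was not tested. Of the immune channels, P2rx4 and Aqp9 fell and Kcnk6 rose, beside macrophage and mast cell markers of which 4 of 5 fell.

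Other channel and ion transport genes, which the symbol pattern does not take, also mostly fell. Of 44 tested from a list of 66, 32 fell and 12 rose in Model (median -1.38). In all genes tested 41.4% fell and 49.1% rose, with a median of 0.25. The list includes genes of the skeletal muscle fibre, such as Ryr1, Atp2a1, Casq1 and Jph2, which fell. It is therefore not separate from the muscle channels, and the part of the muscle genes in this count was not tested. Stim1, the store sensor that opens Orai channels, went from 257 ± 14.5 CPM in Ctrl to 116 ± 6.59 in Model (SD, n = 4 each; log2 fold change -1.15, SE 0.07). Mcu, the pore of the mitochondrial calcium uniporter, fell by 1.56 and Sln, the small inhibitor of the calcium pump of the sarcoplasmic reticulum, by 2.39. Gabrp, a GABA receptor subunit, rose by 4.79 (SE 0.25), from 5.04 ± 1.87 to 140.2 ± 17.8 CPM (SD, n = 4 each).

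No gene of the 79 passed between M+NSPCC1 and Model. In M+NSPCC1 against Model 0 of 79 genes passed by edgeR, as did 0.0% of all genes (smallest adjusted p among the 79 genes 0.0806). At an unadjusted p under 0.05 there were 3 of the 79 (Kcnab1, Scn4b and Trpv3) and 502 of all genes. DESeq2 called 1 channel gene, Kcnab1 (adjusted p = 5.13e-05), and 0.956% of all genes. The median log2 fold change was 0.01, and the groups did not overlap for 2 of 79, Kcnab1 and Scn4b, against 4.19% of all genes. The 95% interval of the change lay within 2-fold either way for 34 of 78 (43.6%, all genes 77.1%), and within 1.5-fold for 16 (20.5%, all genes 54.7%). Aqp9, with no count in either group, was left out of these. For the other genes the data allow a change of 2-fold or more, so likeness is not shown.

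Kcnab1 had the smallest p. Its values were given above, and M+NSPCC1 was at least 14.7-fold higher than Model, where it had no count (edgeR adjusted p = 0.0806; 0.0416 without M+NSPCC1 01, and 0.0439 with the row of highest mean count). It still lay below Ctrl in each library. Scn4b was higher by 0.54 on the log2 scale (SE 0.19; adjusted p = 0.635), and Trpv3 differed by -0.73 (SE 0.30) (adjusted p = 0.685). Kcnc4 (chr3:107438298-107460287), a Kv3 channel, had 3.88, 0.834, 5.75 and 1.68 CPM in Model and 11.2, 3.89, 5.101 and 4.71 in M+NSPCC1, a difference of 1.04 (SE 0.51) (adjusted p = 0.775), and 0.59 without M+NSPCC1 01, the highest library. Clcn1 differed by 0.63 (SE 0.33) (adjusted p = 0.8002). None of these 4 passed. The 14 muscle channels had a median difference of 0.50 and the 13 muscle markers one of 0.57. Without Model 03, Aqp4 passed higher in M+NSPCC1 (adjusted p = 0.00893), since the other 3 Model libraries had no count.

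The 5 genes matched by letters alone are not channels. Trpc4ap, Tmem160 and Tmem161a fell in Model by 0.50, 1.07 and 1.04, and Tmem161b rose by 0.54, which DESeq2 did not call (adjusted p = 0.0694). Tmem164 did not pass (0.22 (SE 0.48); adjusted p = 0.668).

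The transcript rows of a gene were also compared. Among the 86 genes, 22 had more than 1 row and none had rows that passed in opposite directions in Model against Ctrl. Of all genes with at least 2 tested rows, 8.29% did. The 22 include Ano10, Cacnb3, Clca3a2 and Kcnma1, which had fewer than 2 rows tested. They also include Aqp4, Kcnk7 and P2rx5, whose rows are identical and cannot oppose each other. So few genes are left that finding none is no contrast with that share. Trpv3 rose in both its rows (2.65 and 3.07 on the log2 scale), Cacna1i in both, and Clcn1 fell in all 3, by 5.15, 3.68 and 3.69. The rows of Aqp4, Cacng6, Kcnk7 and P2rx5 include identical copies, which were summed as deposited.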

How the data were processed

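The study measured mouse skin RNA in 12 libraries, 4 each of Ctrl, Model and M+NSPCC1, made from TRIzol total RNA with an mRNA library kit, per the labels' protocols. For each library the authors deposited estimated counts (69.5% of values not whole) and FPKM values, which divide by transcript length and sequencing depth, per the file headers. HISAT2 2.2.1, RSEM 1.3.1, DESeq2 1.34.0 and the mm10 build are named in the submitters' processing notes, without their roles. In all, the tables hold 7869 of the 21900 protein-coding genes of RefSeq, mostly genes that differ from Ctrl, so CPM refers to the summed count of the tables and not to the whole library.

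Transcript rows were summed by gene ID, identical rows included, and counts were rounded. All 12 libraries entered a single fit with edgeR 4.0.16 (TMM scaling, filterByExpr, quasi-likelihood test, R 4.3.3), with Benjamini-Hochberg adjustment over the 7638 genes tested and a threshold of 0.05. Alternatives used DESeq2 1.42.0, limma 3.58.1 on log2(FPKM + 1) or log2(FPKM + 0.1), other scalings, filters and row choices, a replicate block, and each library left out. Leaving out the 5 genes matched by letters alone and counting identical rows once were chosen after the data were seen. The relative depth of whole libraries was recovered from count and FPKM values. The code was tested on simulated data. Where a gene had no count in a group, fold bounds used 3 counts over the group, for counting error only. The precision of each value is given by the spread over 4 libraries.

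Genes named with values were those with the 12 largest rises and falls against Ctrl (adjusted p under 0.05, mean of at least 1 CPM, no overlap), the 5 smallest p in M+NSPCC1 against Model, and the pair with the highest FPKM in each family. Other genes named, such as neighbours, were chosen after their values were seen. Members, gene lists and tests were chosen with earlier results of these data known. Some genes matching the symbol pattern are not reported here by name, though they count in the totals where tested.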

Additional observations from a re-analysis of the deposited data

Results flagged for a closer look

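Among 132 sets of 4 CPM values (named genes in each group), 8 held a library whose gap to the nearest other library exceeded Dixon's 95% critical value for 4 samples, as a share of the range, and chance gives about 1 in 20. In Model, Aqp4 had 10.22 CPM in Model 03 and no count in the other 3 libraries. Kcnj12 was lowest in Model 02, at 1.483 CPM, where its other libraries held 2.889 to 3.076. In M+NSPCC1, library 01 was the highest for 3 genes: Aqp3 had 848.4 CPM there against 211.8 to 265.6, Kcnc4 had 11.18 against 3.894 to 5.101, and Orai1 had 31.72 against 21.13 to 22.91. Kcnip2 was lowest in M+NSPCC1 03, at 1.548 CPM, beside 2.967 to 3.025. In Ctrl, P2rx4 had 119.7 CPM in Ctrl 01 against 88.36 to 91.53, and Kcnk6 had 46.06 in Ctrl 02 against 55.82 to 57.4. Without M+NSPCC1 01, Orai1 averaged 22.2 ± 0.955 CPM (SD, n = 3), with a log2 fold change of -1.48 against Ctrl.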

How the results depend on the processing

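No called change reversed under any alternative run. Aqp3, which did not pass in M+NSPCC1 against Model (log2 fold change 0.35), was at -0.38 without M+NSPCC1 01 (edgeR adjusted p = 0.996). Of the 71 genes, those matched by letters alone counted in, that passed in Model against Ctrl, 68 also passed with DESeq2's size factors, 71 with whole-library depth, 68 with DESeq2, 60 with limma on log2(FPKM + 1), 70 with the same and no filter on low FPKM, and 66 to 71 without 1 library. The counts without 1 library were 17 to 20 higher and 50 to 52 lower in Model, and 17 to 20 higher and 53 to 57 lower in M+NSPCC1, each against Ctrl. In M+NSPCC1 against Model, the count higher was 1 with DESeq2 and 1 with the row of highest mean count (Kcnab1 in both), and 0 to 1 without 1 library (Aqp4 without Model 03, Kcnab1 without M+NSPCC1 01). With summed CPM in place of FPKM, the log2 ratio of Model to Ctrl was -1.43 for anoctamins, 0.24 for aquaporins, -0.85 for Clcn genes, -0.86 for potassium channels and 0.80 for TRP channels (the cause was not tested). Libraries with the same number did not deviate together (correlations -0.162 to 0.119). This gives no sign of pairing by number, but weak correlations over all genes cannot exclude it. With the replicate block, 19 of the 79 genes were higher and 52 lower in Model, 18 and 55 in M+NSPCC1, and 0 passed between M+NSPCC1 and Model; 70 of 71 and 73 of 74 calls were kept, with Kcnk2 and Tmem161b lost. Genes under 1 CPM in a group, such as Kcnc2 and Kcnmb1, are limited by depth.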
